A study of Homo sapiens with 15 samples.

Results

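The comparison set CP70 cells given decitabine and PXD101 (3 arrays) against CP70 cells given decitabine alone (3 arrays), 6 of the 15 arrays of the series, and asked what 24 h of PXD101 added to a decitabine treatment across 19775 genes. CP70 is a cisplatin-resistant derivative of the human ovarian cancer line A2780. Cells of the combined arm were kept in 0.1 µM decitabine over 48 h, renewed after the first day, and in 0.1 µM PXD101 over the last 24 h. The other arm had the same decitabine course and no PXD101. For reference, 3 arrays each came from CP70 given 0.1 µM PXD101 for 48 h, from untreated CP70 and from untreated A2780. Harvest of treated cells followed 96 h after drug removal, so the arrays did not read the response during exposure. The labels give no vehicle for either drug and call the replicates biological triplicates.

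Decitabine is a cytidine analog that is built into DNA and traps DNA methyltransferases, so that methylation is lost as cells divide and genes silenced by promoter methylation can be transcribed. PXD101, also named belinostat, blocks zinc-dependent histone deacetylases, which remove acetyl groups from histones and other proteins. Silenced promoters can carry both marks, methylated CG dinucleotides and deacetylated histones. Cancer-testis antigens, other germ cell genes and interferon-stimulated genes are the groups best known for reactivation by DNA demethylation in cancer lines.

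Values are on a log2 scale, so that a difference of 1 is a 2-fold change. The lower quartile of all gene values was 4.34 and the median 6.28, and a gene near or under the lower quartile gave a weak signal on these arrays. Array medians lay between 5.00 and 5.06. Correlations across genes were 0.9951 to 0.9970 within the combined arm, 0.9932 to 0.9971 within the decitabine arm and 0.9927 to 0.9975 between them, so arrays of the 2 arms correlated as highly as replicates. The gap between the 3' and 5' actin probe sets, a sign of RNA degradation, was 0.424, 0.471 and 0.491 in the combined arm, and 0.443, 0.342 and 0.787 in the decitabine arm. Decitabine replicate 3 stood apart on this measure and on the same gap for GAPDH (0.187), and its part in the differences was not tested beyond leaving it out. In the reference groups the actin gap was 0.859, 0.629 and 0.646 in untreated CP70, and 0.384, 0.508 and 0.480 with PXD101. Whether this bears on contrasts with untreated CP70 was not tested. As to cell identity, KRT18, KRT8, EPCAM and PAX8, which mark epithelial and ovarian carcinoma cells, averaged 10.60, 8.29, 8.06 and 7.25 in the combined arm. Defining epithelial and Müllerian markers CDH1, MUC16 and WT1 were weak there, at 3.68, 3.79 and 3.64. In the combined arm against decitabine, the ovarian carcinoma, leukocyte, fibroblast, endothelial and neural marker lists had 0 of 11, 0 of 13, 0 of 10, 0 of 8 and 0 of 5 measured members at an unadjusted limma p under 0.05.

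Adding PXD101 to decitabine left the expression profile nearly where decitabine alone had put it. DPPA4 and DPPA2, nearby genes of pluripotent and early germ cells, rose, and they were 2 of 19775 genes called at a limma adjusted p under 0.05 (0.0101%). No gene fell at that threshold, against 545 lower at an unadjusted p under 0.05 (2.76%) and 1 lower gene by rank product. In the higher direction 384 genes (1.94%) had an unadjusted p under 0.05, and both directions together came to 929 (4.7%). The data bound the size of most differences closely: the 95% interval of the difference lay within 2-fold either way for 19633 genes (99.3%), and within 1.5-fold for 17723 (89.6%). The median half-width of these intervals was 0.267. These counts include 4130 genes under the lower quartile of all gene values on all 6 arrays, where little of a difference could be read. The lowest and highest 1% of differences began at -0.34 and 0.35, and the median difference was -0.01.

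**Figure D1:**
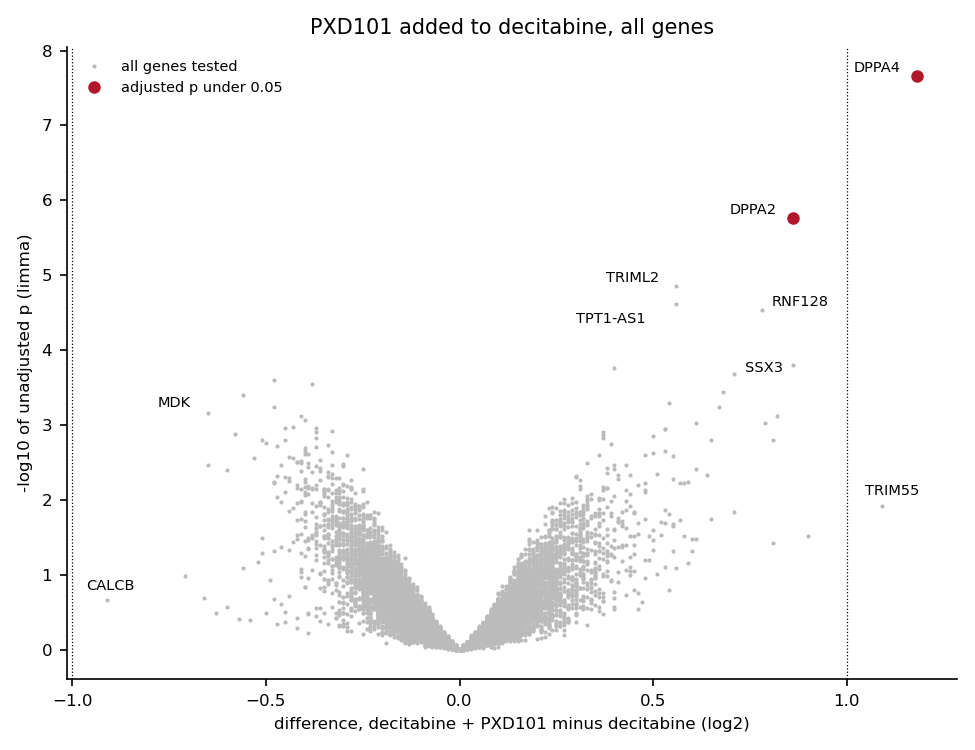
Each grey point is 1 of 19775 genes, with the difference between the combined arm and the decitabine arm on the x axis (log2) and minus log10 of the unadjusted limma p on the y axis. The red points, DPPA4 and DPPA2, are the genes called at an adjusted p under 0.05, and the dotted lines mark 2-fold.

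DPPA4 and DPPA2 encode nuclear proteins with a SAP domain that act as a pair in pluripotent cells and are silent in most adult tissues. DPPA4 read 5.81, 5.78 and 5.86 with both drugs, against 4.87, 4.60 and 4.45 with decitabine alone. In RNA from whole cultures, more cells with the transcript and more transcript per cell cannot be told apart. All 3 combined arrays lay above all 3 decitabine arrays, and the gap between the groups was larger than the range within either. The difference was 1.18 ± 0.11 (SE, 2.26-fold, 95% interval 0.95 to 1.41, limma adjusted p = 0.000429). DPPA4 had 3 probe sets on the array, and they disagreed: the other two read 3.46 and 3.77 in the combined arm and 3.52 and 3.62 with decitabine, with differences of -0.07 and 0.15. Both of these sat under the lower quartile of all gene values in both arms. DPPA2 had 1 probe set, which read 6.76, 6.98 and 6.56 with both drugs, against 5.89, 5.95 and 5.88 with decitabine. Its groups did not overlap either, and the difference was 0.86 ± 0.11 (SE, 1.82-fold, interval 0.62 to 1.10, limma adjusted p = 0.017). With PXD101 alone both genes read close to untreated cells: DPPA4 averaged 3.20 ± 0.05 with PXD101 and 3.29 ± 0.12 in untreated CP70, and DPPA2 4.50 ± 0.07 and 4.53 ± 0.08 (SD, n = 3 each). Those DPPA4 values lay under the lower quartile of all gene values, and those of DPPA2 near it. Little of an effect of PXD101 alone could be read at such levels. Decitabine alone stood above untreated CP70 by 1.36 for DPPA4 and by 1.37 for DPPA2 (limma adjusted p = 1.21e-06 and 1.69e-06). The DPPA2 call did not hold when only the 6 arrays were fitted (adjusted p = 0.294), nor did that of DPPA4 (0.078), while both differences stayed at the same size. Leaving out 1 of the 6 arrays kept DPPA4 called each time, whereas DPPA2 passed only without combined replicate 3 and reached adjusted p-values of 0.0877 to 0.132 without any 1 of the other five.

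The promoter windows of DPPA4, DPPA2 and of TRIML2, the gene next in order of p, are printed because the methylation lost after decitabine lies on CG dinucleotides. Each runs over 300 bases and ends shortly after the start of transcription, as given by RefSeq on build GRCh38.p14, with every CG in capitals. DPPA4 lies at chr3:109337497-109337796 and DPPA2 at chr3:109316468-109316767, both on the minus strand with the starts of their windows 21029 bases apart, and TRIML2 lies at chr4:188109554-188109853 on the minus strand.
DPPA4: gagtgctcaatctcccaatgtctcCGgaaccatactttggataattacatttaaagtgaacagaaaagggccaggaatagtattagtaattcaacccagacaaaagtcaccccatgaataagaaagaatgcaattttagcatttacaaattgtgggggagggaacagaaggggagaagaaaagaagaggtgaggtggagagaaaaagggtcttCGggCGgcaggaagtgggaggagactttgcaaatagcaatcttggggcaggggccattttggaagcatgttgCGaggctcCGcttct
DPPA2: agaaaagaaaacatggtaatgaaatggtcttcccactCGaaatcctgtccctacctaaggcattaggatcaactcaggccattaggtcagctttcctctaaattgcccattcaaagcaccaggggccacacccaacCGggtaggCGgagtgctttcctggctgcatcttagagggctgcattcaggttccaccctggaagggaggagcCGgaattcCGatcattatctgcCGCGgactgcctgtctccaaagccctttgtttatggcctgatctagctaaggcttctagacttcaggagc
TRIML2: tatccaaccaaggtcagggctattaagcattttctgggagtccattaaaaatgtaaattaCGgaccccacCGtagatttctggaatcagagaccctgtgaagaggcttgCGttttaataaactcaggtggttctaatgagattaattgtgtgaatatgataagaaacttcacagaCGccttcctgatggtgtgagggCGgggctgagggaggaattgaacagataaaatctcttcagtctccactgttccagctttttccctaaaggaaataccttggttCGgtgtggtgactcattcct
The letters CG, which read the same on both strands, occurred 5 times in the DPPA4 window, 7 times in that of DPPA2 and 6 times in that of TRIML2. Over the 15382 measured genes with such a window, 98.3% held at least 1 CG and the median was 22 (quartiles 9 and 32), so these 3 promoters were CG-poor. Methylation was not measured on these arrays.

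The genes next in order of p, which did not pass the threshold, were also higher in the combined arm. TRIML2, a TRIM-like gene, read 6.24, 6.16 and 6.20 with both drugs, against 5.75, 5.57 and 5.61 with decitabine. The groups were apart, with a difference of 0.56 ± 0.09 (SE) and a limma adjusted p of 0.0909. RNF128, which encodes the ubiquitin ligase GRAIL, read 5.28, 5.25 and 5.34 with both drugs, against 4.68, 4.40 and 4.44 with decitabine, a difference of 0.78 ± 0.13 (SE, limma adjusted p = 0.113). For RNF128 decitabine alone stood 0.20 above untreated CP70 (adjusted p = 0.396). TPT1-AS1, an antisense transcript of the gene for translationally controlled tumour protein, read 5.87, 5.91 and 5.87 with both drugs, against 5.27, 5.25 and 5.44 with decitabine (0.56 ± 0.09, SE, limma adjusted p = 0.113). Untreated CP70 averaged 5.85 ± 0.12 (SD, n = 3) for TPT1-AS1, close to the combined arm, with decitabine alone below both. The other probe sets of TPT1-AS1 gave differences of -0.14, 0.33, -0.03 and 0.22.

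**Figure D2:**
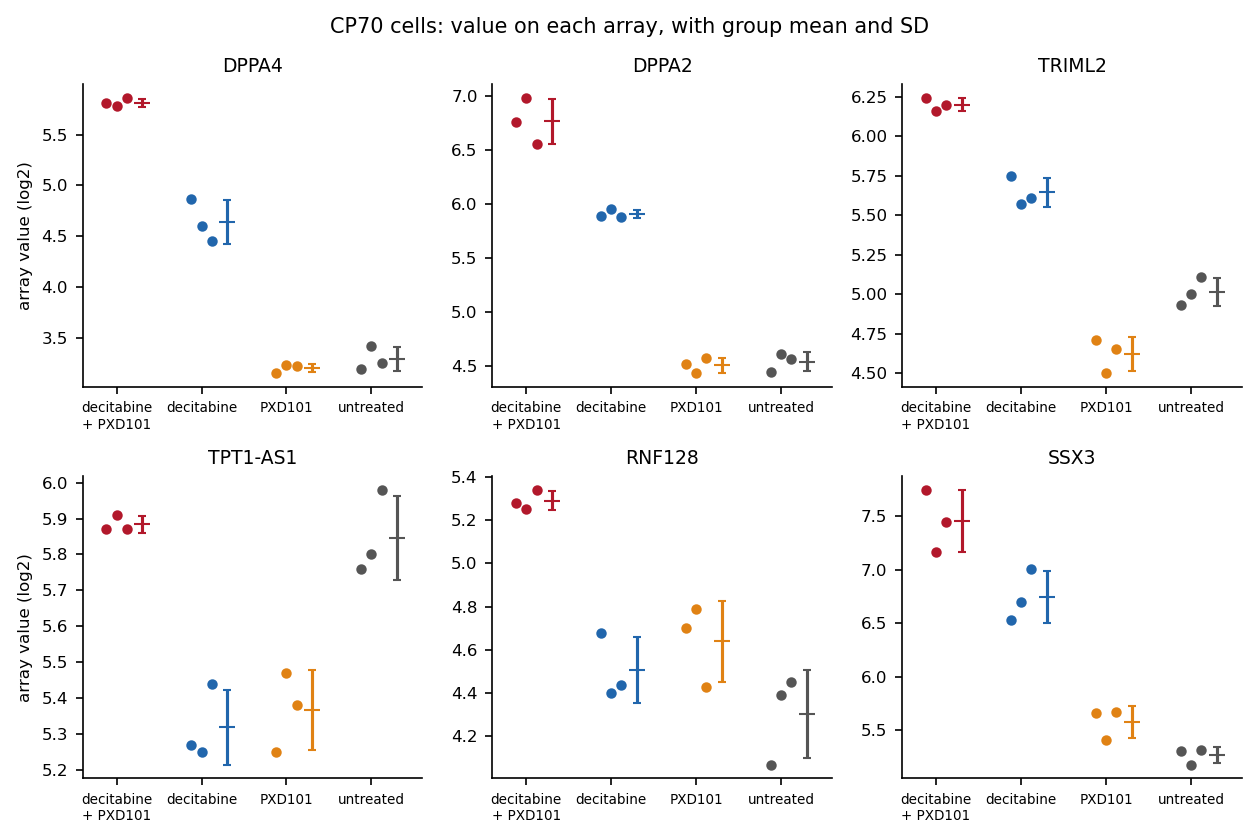
Points are single arrays of CP70 (log2 array value, y axis), by treatment on the x axis, with the group mean and SD beside them (3 arrays a group, y axes not starting at 0). DPPA4, DPPA2, TRIML2, RNF128 and SSX3 were highest in the combined arm, and TPT1-AS1 was as high there as in untreated cells.

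The genes after these in order of p did not pass the test (limma adjusted p = 0.49 to 0.823), although the combined arrays lay above the decitabine arrays for each. Arrays were apart in this direction for 912 of all genes (4.61%) and in the other for 1191 (6.02%), so separation alone singles out no gene. HMMR-AS1, antisense to the gene of a hyaluronan receptor, was 0.86 higher (5.27, 5.42 and 4.99, against 4.63, 4.50 and 3.98). TFAM, which packages and transcribes mitochondrial DNA, was 0.40 higher at a high level, reading 10.06, 10.15 and 10.11, against 9.70, 9.79 and 9.62. Its other probe sets gave differences of 0.10, 0.03 and 0.50. GPX3, a secreted glutathione peroxidase, was 0.68 higher, and its second probe set was 0.54 higher. HBEGF, a ligand of the EGF receptor, was 0.54 higher by the probe set used and -0.13, -0.12 and 0.19 by the others. TRIM59, a ubiquitin ligase gene, read 6.26, 6.11 and 6.43, against 6.05, 5.37 and 5.37 with decitabine, and 3.34 ± 0.14 in untreated CP70 (SD, n = 3). ANGPT2, a ligand of the endothelial receptor TEK, was 0.82 higher by the probe set used and 0.69, 0.08 and -0.08 by the others. ANKRD1, an ankyrin repeat gene responsive to the coactivator YAP, was 0.79 higher, and the pseudogene FRG1GP 0.61 higher. FRG1GP has near-identical copies in the genome, and antisense RNAs share sequence with their partners, so those 3 values are uncertain as to their source.

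Rank product, the test named in the series' design text, ranks fold changes over pairs of arrays and was called at under 5% false positives. It called 18 genes (0.091%), 17 higher and 1 lower. Besides DPPA4 and DPPA2, the higher ones were TRIM55, FCF1, HMMR-AS1, ANGPT2, ARL14, ZFP42, ANKRD1, RNF128, SSX3, PLAC8, GPX3, TRIM59, PMCH, BOLA2 and SPATA22, of which TRIM55, FCF1, ARL14, PLAC8, PMCH and BOLA2 were named after their values were seen. TRIM55, a muscle ring finger gene, was the second gene with a difference of 2-fold or more, at 6.80, 7.42 and 6.96 with both drugs, against 5.76, 6.16 and 5.99 with decitabine. Its difference was 1.09 with an interval of 0.28 to 1.90 and a limma adjusted p of 1. FCF1, which acts in ribosomal RNA processing, read 6.93, 6.76 and 6.71, against 6.42, 6.59 and 4.68, and decitabine replicate 3 lay far below the other five arrays. The lower gene, CALCB, encodes a calcitonin gene-related peptide and was also named after its value was seen. CALCB read 8.08, 8.91 and 8.54 with both drugs, against 9.39, 10.06 and 8.80 with decitabine, and the groups overlapped (difference -0.91, interval -2.39 to 0.58, limma unadjusted p = 0.213).

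In the lower direction the 14 genes of smallest p were also not called (limma adjusted p = 0.552 to 0.823). MDK, which encodes the heparin-binding growth factor midkine, was the best expressed of them. MDK read 8.02, 8.15 and 8.39 with both drugs, against 8.90, 8.93 and 8.68 with decitabine, and the groups did not overlap. The difference was -0.65 ± 0.15 (SE, interval -0.97 to -0.33, limma adjusted p = 0.823). Decitabine alone had MDK 1.60 above untreated CP70 (adjusted p = 8.01e-06), and A2780 averaged 10.21 ± 0.25 (SD, n = 3). The extracellular matrix gene EMILIN1 was at 5.24, 5.39 and 5.73, against 6.31, 5.76 and 6.03, and FNDC5, the gene of the irisin precursor, at 5.01, 5.09 and 5.20, against 5.53, 5.50 and 5.96. TAL2, a helix-loop-helix factor, differed by -0.41, PIGR, the polymeric immunoglobulin receptor, by -0.33, and the long non-coding RNA LINC00174 by -0.37. IZUMO1, needed for fusion of sperm and egg, differed by -0.48 at 3.27, 3.36 and 3.27, against 3.79, 3.86 and 3.68. Like IZUMO1, the genes ZNF475, LOC101928417, TMEM238 and PCDHGC5 read under the lower quartile of all gene values on all 6 arrays, and LINC03016, TMCO2 and IRX4 read under it on the combined arrays.

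Cancer-testis antigen genes, mostly X-linked genes of male germ cells, were high after decitabine with or without PXD101. Of 27 measured, 0 passed the adjusted test in the combined arm against decitabine, 4 were higher and 1 lower before adjustment (p under 0.05, against 1.94% and 2.76% of all genes), and 20 differences were above 0 against 46.3% of all genes. The median difference was 0.06, beside -0.01 over all genes. The 4 higher were SSX3, SPANXB1, MAGEB1 and GAGE1, and the lower one was SAGE1, GAGE1 being named after its value was seen. SSX3, a transcriptional repressor of the SSX family, read 7.75, 7.17 and 7.45 with both drugs, against 6.53, 6.70 and 7.01 with decitabine. Its difference was 0.71 ± 0.14 (SE, limma adjusted p = 0.503), while its other probe sets gave 0.19 and 0.12. SPANXB1, a gene of sperm cells, read 4.48, 4.45 and 4.37, against 4.06, 4.01 and 4.23. MAGEB1 read 6.77, 6.72 and 6.18, against 5.95, 6.21 and 6.28, so these groups overlapped. SAGE1 read 4.11, 4.53 and 4.07, against 4.58, 4.85 and 4.79, a difference of -0.50 with an interval of -0.78 to -0.22.

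The antigens with the strongest signal after decitabine, named here for their level, differed little with PXD101 added. MAGEA6 read 10.54, 10.64 and 10.22 with both drugs, against 10.34, 10.42 and 10.21 with decitabine and 3.69 on average in untreated CP70, and its difference had an interval of -0.16 to 0.45. SSX1 read 10.30, 10.18 and 9.61, against 9.52, 9.68 and 9.86, with an interval of -0.07 to 0.77. For MAGEA4 the difference was 0.02 (-0.31 to 0.36), for MAGEA1 0.17 (-0.18 to 0.53), for MAGEA12 0.13 (-0.21 to 0.47) and for CTAG2, the antigen LAGE, 0.04 (-0.30 to 0.39). The interval lay within 2-fold for 26 of the 27 genes. MAGE, SSX, GAGE and SPANX genes have near-identical copies that probe sets cannot fully separate. The list's median varied with the arrays used: it was 0.00 without combined replicate 2 (14 of 27 above 0), 0.02 without decitabine replicate 3 (16 of 27), and 0.20 without decitabine replicate 2 or combined replicate 3. Decitabine alone against untreated CP70, which shares the decitabine arrays, had 20 of the 27 called higher (all genes 4.87%, and 8.01% in either direction) with a median difference of 1.95, and PXD101 alone against untreated had 2 of 27 (all genes 5.57%) with a median of 0.06.

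**Figure D3:**
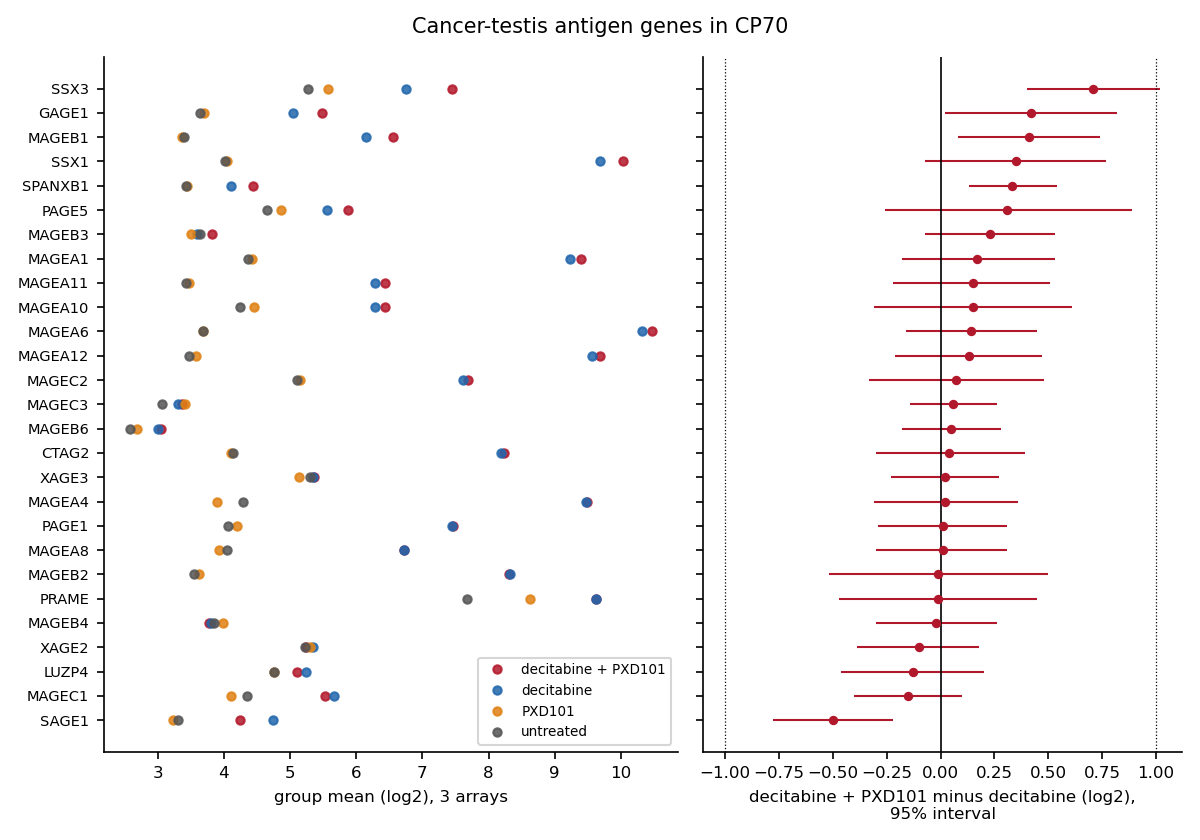
The left panel gives the group means of 27 cancer-testis antigen genes (log2, 3 arrays each) in CP70 with both drugs, decitabine, PXD101 and no drug. The right panel gives the difference of the combined arm from decitabine with its 95% interval (log2), in which 26 of 27 intervals lie within the dotted 2-fold lines.

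The list of germ cell, pluripotency and piRNA pathway genes outside the antigen families held both called genes. Its members were chosen with earlier results of these data known, so this is no independent evidence about germ cell genes. Of 37 measured, DPPA4 and DPPA2 passed the adjusted test. Before adjustment 7 were higher and 0 lower (p under 0.05), against 1.94% and 2.76% of all genes. Differences were above 0 for 22, against 46.3% of all genes. The list's median was 0.03 and lay between 0.01 and 0.08 with any 1 array left out. The others of the 7 were TRIML2, HORMAD1, DDX4, TDRD1 and ZFP42. HORMAD1, which organizes chromosome axes in meiosis, read 6.65, 6.86 and 6.44, against 6.31, 6.31 and 5.50 with decitabine, and the difference was 0.61 (interval 0.23 to 0.99). DDX4, the germ cell helicase VASA, read 4.24, 4.31 and 4.34, against 4.11, 4.06 and 3.91, and TDRD1, a tudor protein of the piRNA pathway, differed by 0.44 (interval 0.11 to 0.77), both near the low end of the arrays. ZFP42, the pluripotency factor REX1, read 7.29, 7.45 and 6.43, against 6.68, 6.89 and 5.19, so its difference of 0.81 overlapped between groups and leaned on decitabine replicate 3. CTCFL, the germline paralog of CTCF, read 7.52, 7.33 and 7.72, against 7.55, 7.15 and 7.44, with an interval of -0.13 to 0.42 and 3.67 on average in untreated cells. DDX4, TDRD1, ZFP42 and CTCFL were named after their values were seen. Genes of the meiotic chromosome went both ways, with 1 of 25 higher and 2 lower before adjustment (p under 0.05). These were SPATA22, a recombination gene, at 0.64, and TERB1, which ties telomeres to the nuclear envelope, and SYCE2, of the synaptonemal complex, at -0.43 and -0.35.

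Interferon-stimulated genes, many of which were higher with decitabine alone, had no member called with PXD101 added. Of 55 measured, 0 passed the adjusted test, and 0 were higher and 0 lower before adjustment (p under 0.05) in limma. The median difference was -0.10, and 45 of 55 were below 0, against 53.7% of all genes. This lean downward was not stable: without decitabine replicate 2 it turned to 35 of 55 above 0 with a median of 0.04, and without combined replicate 1 to 30 of 55 with 0.02. The list's median level per array was 8.21, 8.49 and 8.43 with both drugs, against 8.36, 8.72 and 8.22 with decitabine, and the arms overlapped. SAMD9, an antiviral effector, had the smallest p of the list, at 3.91, 4.21 and 4.47, against 4.05, 5.35 and 4.74 (difference -0.52, interval -1.07 to 0.04). Its other probe set went the other way, at 0.26, and averaged 4.30 with both drugs and 4.04 with decitabine. OAS3, which makes the second messenger of RNase L, read 8.37, 8.61 and 8.79, against 8.76, 9.12 and 8.73, and IFITM1, which blocks viral entry, 11.14, 11.16 and 11.48, against 11.56, 11.55 and 11.25. ADAR, the editor of double-stranded RNA, was at -0.13 with an interval of -0.30 to 0.03. The interval lay within 2-fold for 51 of the 55 genes. Decitabine alone against untreated had 38 of the 55 called higher with a median of 0.91, beside 4.87% higher over all genes. PXD101 alone had 1 higher and 2 lower with a median of 0.03, beside 10.7% of all genes called in either direction.

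Antigen presentation genes had 1 of 36 higher and 2 lower before adjustment (p under 0.05, all genes 1.94% and 2.76%). HLA-DRB1, a class II chain with close paralogs, was lower at 5.80, 5.54 and 5.78, against 6.28, 6.16 and 5.99 with decitabine. Among chemokines, cytokines and NF-kB targets 1 of 39 was higher and 0 lower. That one was CXCL11, a ligand of CXCR3, at 5.37, 5.54 and 5.53, against 5.07, 5.28 and 4.90, and IL6 had a difference of 0.42 with an interval of -0.03 to 0.86.

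Genes commonly raised by deacetylase inhibitors were read 96 h after removal of the drugs. Of 35 measured, 0 were called and 0 had an unadjusted p under 0.05 in either direction. Their median difference was 0.06, and 21 were above 0; the median was 0.01 without combined replicate 2, 0.14 without combined replicate 1, 0.03 without decitabine replicate 1 and 0.10 without decitabine replicate 2. Decitabine alone against untreated CP70 already had 17 of the 35 called higher and 0 lower (median 0.70), beside 4.87% higher over all genes. PXD101 alone had 5 higher and 6 lower (median 0.04), beside 10.7% of all genes called in either direction. GLRX, the disulfide reductase glutaredoxin, differed by 0.20 (interval -0.10 to 0.51). The histone gene H2BC4 read 6.90, 7.68 and 7.24, against 6.81, 7.06 and 6.74, and MT1F, a metallothionein, 9.59, 9.75 and 9.19, against 9.12, 9.46 and 9.43. CDKN1C, an inhibitor of cyclin-dependent kinases, differed by -0.16. CDKN1A, which encodes the inhibitor p21 and is the textbook target of this drug class, read 10.33, 10.67 and 10.74, against 10.51, 10.73 and 10.47. For CDKN1A the difference was 0.01 with an interval of -0.45 to 0.47, which leaves out a change of 1.5-fold or more in either direction. Over the list the interval lay within 2-fold for 31 of 35 genes.

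Replication-dependent histone genes had the highest median of the lists, 0.14. Of 38 measured, 5 were higher and 0 lower before adjustment (p under 0.05), against 1.94% and 2.76% of all genes. Differences were above 0 for 30, against 46.3% of all genes, and none passed the adjusted test. H2BC11 read 6.51, 7.13 and 6.65, against 6.31, 6.21 and 6.27, a difference of 0.50 ± 0.14 (SE, limma adjusted p = 0.924). H3C2 read 6.03, 6.42 and 6.15, against 5.59, 5.88 and 5.36, and H2BC3 and H1-1 differed by 0.33 and 0.27. The fifth was H3C1, named after its value was seen, at 0.32 and under the lower quartile of all gene values. The list's median level per array was 5.84, 5.83 and 5.76 with both drugs, against 5.61, 5.63 and 5.41 with decitabine, so the arms did not overlap. Such separation was not particular to histone genes. Median levels of the germ cell and antigen presentation lists were also apart upward, with median differences of 0.03 and 0.04. Those of DNA methylation and demethylation genes were apart downward, at -0.04. For histone genes the median difference stayed between 0.10 and 0.17 with any 1 array left out. Histone genes are near-identical in their coding parts, and probe sets may read several at once. DNA replication genes leaned the same way, with 31 of 43 above 0, a median of 0.08, 3 higher and 0 lower before adjustment (p under 0.05). The 3 were RPA2, a single-strand binding subunit, PRIM2, of the primase, and CDC6, which loads the replicative helicase, at 0.26, 0.25 and 0.33. The replication lean was not stable: its median was 0.03 without decitabine replicate 2 (24 of 43 above 0) or combined replicate 1 (25 of 43), and 0.05 without decitabine replicate 1. Without decitabine replicate 3, which stood apart in the actin measure, it was 0.14, and that of histone genes 0.10, beside 0.00 for all genes.

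None of the enzymes that the drugs act on was called. DNMT1, the maintenance methyltransferase that decitabine traps, read 9.78, 9.81 and 9.87 with both drugs, against 10.02, 9.86 and 9.80 with decitabine (-0.07, interval -0.34 to 0.20). DNMT3A and DNMT3B, which set new methylation, differed by -0.05 (-0.51 to 0.42) and 0.10 (-0.66 to 0.86). The class I deacetylases HDAC1, HDAC2 and HDAC3 differed by -0.03, 0.05 and -0.13, and their intervals lay between -0.39 and 0.26. HDAC6, the tubulin deacetylase, was the 1 of 18 deacetylases and sirtuins at an unadjusted p under 0.05, at 7.77, 7.69 and 8.05, against 8.04, 7.93 and 8.36 (limma adjusted p = 1). The other HDAC6 probe sets gave 0.16 and -0.07. Over all genes 1.94% were higher and 2.76% lower at that unadjusted p. Of 20 acetyltransferases and acetyl-lysine readers, the chromatin remodelling subunit BPTF and the bromodomain protein BRD3 were lower by unadjusted p, at -0.39 and -0.29. ATAD2 was higher, at 0.35, also by unadjusted p. Other probe sets gave -0.25 to 0.16 for BPTF, -0.13 and -0.08 for BRD3, and 0.21, 0.04 and -0.11 for ATAD2. Of 28 subunits of deacetylase complexes, CHD3 and MBD3, both of the NuRD complex, were lower at -0.32 and -0.38. Other probe sets gave -0.12 for CHD3, and -0.23 and -0.01 for MBD3. MBD3 read 8.63, 8.54 and 8.45, against 8.69, 8.71 and 9.35, so that decitabine replicate 3 set most of that difference. MBD3 was also the 1 of 23 genes of DNA methylation and demethylation at an unadjusted p under 0.05. None of 19 genes of decitabine uptake and metabolism reached it. DCK, the kinase that activates decitabine, read 9.68, 9.69 and 9.73, against 9.68, 9.56 and 9.33 (0.18, interval -0.03 to 0.39).

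Lists of growth, damage and death response held no called gene. Over all genes 1.94% were higher and 2.76% lower at an unadjusted limma p under 0.05. Of 30 p53 targets 0 had an unadjusted p under 0.05, the smallest being BAX, a pore-forming death effector, at 0.23 (-0.04 to 0.50). Among 53 mitosis and cell cycle genes CCND2, a G1 cyclin, was lower at -0.22 and 0 were higher. Of 34 apoptosis regulators and 10 mismatch repair genes 0 reached an unadjusted p under 0.05, and of 38 excision, crosslink and recombination repair genes RAD51C did, at 0.17. The 29 immediate early genes and 27 genes of sterol and fatty acid synthesis had 0 each.

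Genes tied to platinum resistance were read because CP70 is a cisplatin-resistant line. Of 40 genes of platinum transport and thiol detoxification, GPX3 was higher as given above. GPX2, a gut glutathione peroxidase, and ABCC3, an export pump, were lower at -0.36 and -0.30 by unadjusted p (all genes 1.94% higher and 2.76% lower). Other probe sets gave -0.07 for GPX2 and -0.08 to 0.03 for ABCC3. GSTP1, a glutathione transferase, read 11.36, 11.08 and 11.13, against 11.37, 11.45 and 11.60 (-0.29, interval -0.60 to 0.03). None of 10 metallothioneins reached an unadjusted p under 0.05, and MT1G differed by -0.25 (-0.72 to 0.21). Unfolded protein and integrated stress response genes had the lowest median of the lists, -0.12. Of the 36, 27 were below 0 (all genes 53.7%) and 0 had an unadjusted p under 0.05. The serine synthesis enzyme PHGDH read 9.29, 9.37 and 9.63, against 9.86, 9.74 and 9.73, and SHMT2, which moves the serine carbon in mitochondria, differed by -0.27. Without combined replicate 1 that list turned to 23 of 36 above 0 with a median of 0.06, and without any 1 of the other arrays the median was -0.24 to -0.04. Of 20 heat shock genes, HSPB8, a small chaperone, was higher at 0.45.

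**Figure D4:**
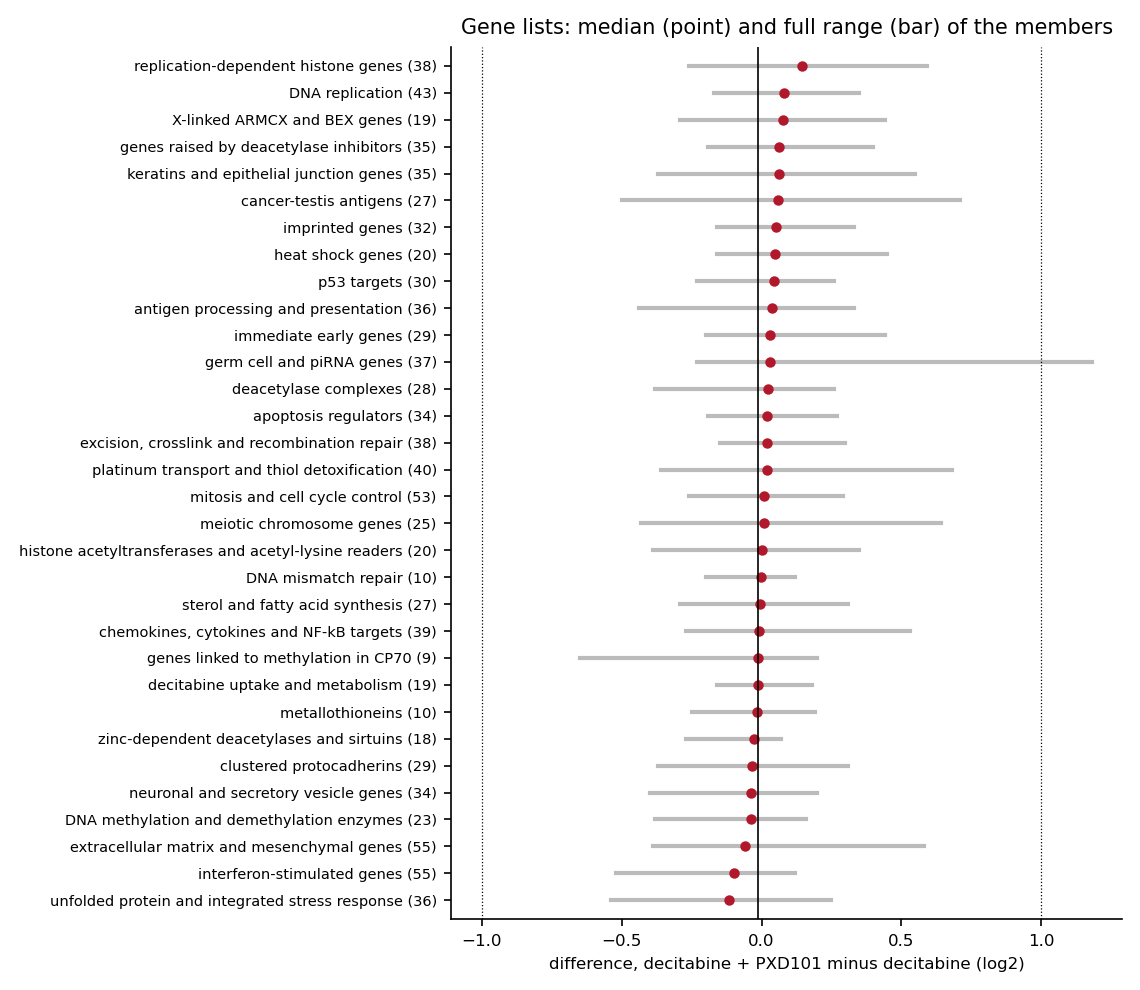
For each of 32 gene lists (measured members in parentheses) the point is the median and the bar the full range of the members' differences between the combined arm and the decitabine arm (x axis, log2). The solid line is the median of all genes, -0.01, and the dotted lines mark 2-fold. List medians ran from -0.12 to 0.14, and DPPA4, at the end of the germ cell bar, is the member past 2-fold.

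Lineage and position-linked lists gave scattered members. Keratin and epithelial junction genes had 3 of 35 higher and 2 lower by unadjusted p (all genes 1.94% and 2.76%). The higher ones were CLDN4, a tight junction gene, KRT13, and CD24, a surface glycoprotein named after its value was seen, at 0.40, 0.38 and 0.55. The other CLDN4 probe set was lower, at -0.25. The lower ones were the protease ST14 and the epithelial factor GRHL2, at -0.37 and -0.27. Other ST14 probe sets gave -0.15 and 0.12. Extracellular matrix genes had THBS1, or thrombospondin, higher at 0.58, and COL6A1 and MMP2 lower at -0.39 and -0.27, of 55. Their other probe sets gave -0.24 to 0.39 for THBS1, -0.14 to 0.14 for COL6A1, and 0.17 and -0.12 for MMP2. Clustered protocadherins had PCDHGA1 at 0.31 and PCDHGC5 at -0.37, of 29, both weakly expressed. Imprinted genes had INPP5F at 0.23, of 32. Neuronal genes had ELAVL4 at 0.20 and MAPT, or tau, at -0.40, of 34. Other probe sets gave -0.08 to 0.13 for ELAVL4 and -0.13 to 0.15 for MAPT. Among 19 X-linked ARMCX and BEX family genes ARMCX1 was higher at 5.68, 5.53 and 5.50, against 4.86, 5.13 and 5.39, TCEAL8 was higher at 0.28 and TCEAL3 lower at -0.29.

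ARMCX2 belongs with 9 genes linked in this line pair to promoter methylation, a list recalled in part from the published study, which drew on these samples, so it is no independent evidence. ARMCX2 read 10.43, 10.59 and 10.49 with both drugs, against 10.43, 10.38 and 10.26 with decitabine, while PXD101 alone averaged 4.02 and untreated CP70 3.64. The difference between the arms was 0.15 with an interval of -0.25 to 0.54, and A2780 averaged 10.39. MEST, an imprinted gene, read 7.13, 7.12 and 6.48, against 6.48, 6.88 and 6.78 (0.20, interval -0.12 to 0.52). MDK, given above, was the 1 of the 9 at an unadjusted p under 0.05.

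Whether PXD101 did the same on decitabine-treated cells as on untreated cells was read from 2 contrasts that share no array. PXD101 was given for 24 h in the first and 48 h in the second, so exposure and decitabine background differ together and cannot be told apart. Against untreated CP70, PXD101 alone had 2119 genes called (10.7%), 1101 higher and 1018 lower. These calls varied with the arrays used. DNA replication genes had list medians of 8.72, 9.77 and 8.72 in untreated CP70, and 9.36 to 9.96 in the other groups, A2780 included. For unfolded protein and integrated stress response genes these were 10.86, 9.76 and 10.90, and 9.01 to 10.38. On these lists untreated replicates 1 and 3 lay outside the other groups. Which untreated array was unusual was not tested. Untreated replicate 2 had correlations of 0.9951 to 0.9967 with PXD101 arrays, and of 0.9832 and 0.9856 with its own group. The number called was 5736 without it, 0 without untreated replicate 1 or 3 or any 1 PXD101 array, and 0 with untreated replicates 1 and 3 both left out. In that last fit the untreated arm holds replicate 2 alone, whose spread is assumed to be that of the other groups, so the 0 does not show that the differences were gone. The 1101 genes higher with PXD101 alone had a median difference of 0.66 there and 0.033 in the combined arm against decitabine, where 15 had a higher and 4 a lower value at an unadjusted p under 0.05 and 1090 had an interval within 2-fold. The 1018 lower ones had medians of -0.65 and -0.0016, with 14 higher and 9 lower, and 960 within 2-fold. Over all genes 1.94% were higher and 2.76% lower in the combined arm at that unadjusted p, and 99.3% had an interval within 2-fold. Across all 19775 genes, as a description and with each difference resting on its own 6 arrays, the 2 had a Spearman correlation of 0.018 and a Pearson correlation of 0.048.

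The difference between these 2 differences was tested per gene, and 3 of 19775 were called (0.0152%, limma adjusted p), with 3576 at an unadjusted p under 0.05 (18.1%). DPPA4 had the largest of the 3, 1.26 ± 0.15 (SE, adjusted p = 0.0111), from 1.18 in decitabine-treated cells and -0.09 in cells without decitabine. In the cells without decitabine DPPA4 lay under the lower quartile of all gene values, where little of an effect of PXD101 could be read. TPT1-AS1 had 1.04 ± 0.13 (adjusted p = 0.0111), from 0.56 and -0.48, and TRIML2 0.95 ± 0.12 (adjusted p = 0.0113), from 0.56 and -0.39. Each was the sum of a higher value in the combined arm and a lower or equal one with PXD101 alone, and none was called without combined replicate 3 (limma adjusted p = 0.0511 to 0.0529) or decitabine replicate 2 (0.0579). TRIML2 also missed the threshold with only the arrays compared (adjusted p = 0.0539) and without combined replicate 1, PXD101 replicate 2 or untreated replicate 3 (0.0506 to 0.0586). With untreated replicates 1 and 3 left out, which leaves 1 untreated array, the differences were 1.40 for DPPA4, 1.00 for TPT1-AS1 and 0.94 for TRIML2, about as large as before (adjusted p = 0.0596, 0.192 and 0.192). DPPA2 had 0.90 ± 0.16 and did not pass.

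**Figure D5:**
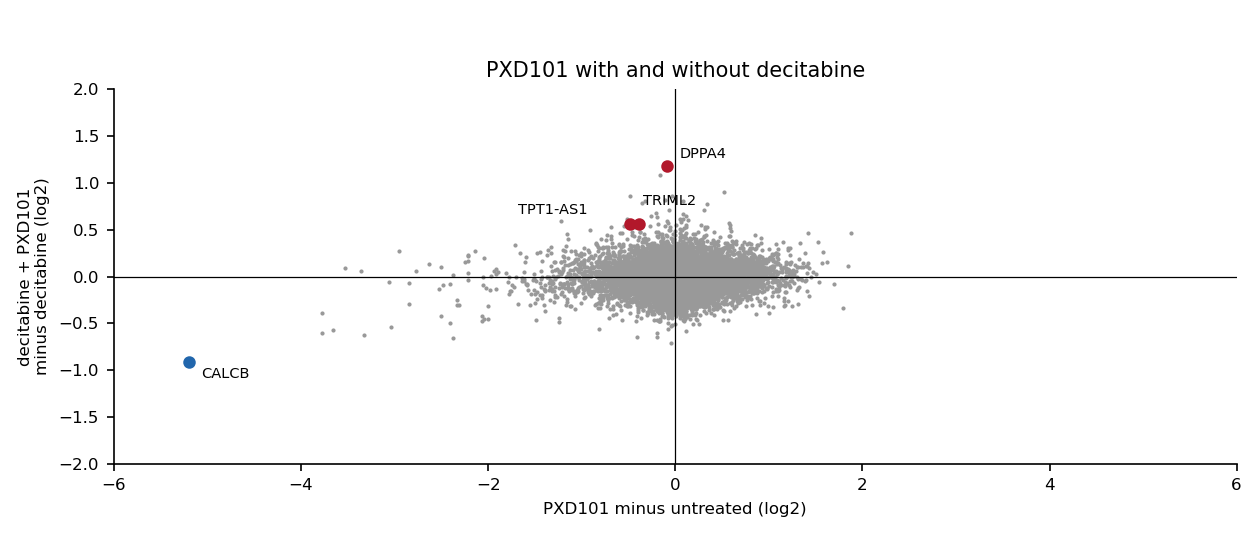
Each point is a gene, with the difference of PXD101 from untreated CP70 on the x axis and that of the combined arm from decitabine on the y axis (both log2). DPPA4, TPT1-AS1 and TRIML2 (red) are the genes called in the difference of the 2, and CALCB (blue) is at -5.20 on the x axis and -0.91 on the y axis.

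The genes next in order of p in that test, none of them called, mostly differed more with PXD101 alone than in the combined arm. KBTBD8, a ubiquitin ligase adaptor, averaged 5.76 with PXD101 against 7.09 in untreated cells, and its difference in the combined arm was 0.32 (-0.10 to 0.73). CBX5, the heterochromatin protein HP1 alpha, read 9.88, 9.79 and 9.98 with both drugs, against 10.36, 10.12 and 10.19 with decitabine, while PXD101 alone averaged 10.78 and untreated CP70 10.16. FMNL3, an actin-nucleating formin, differed by -0.27 in the combined arm and 0.41 with PXD101 alone. The others, TSC22D2, B3GNT2, HMMR-AS1, NEK11, KLHL3, ZKSCAN3, ASB16-AS1, PDK3 and OLFML1, had combined-arm differences of -0.26 to 0.86. CALCB, at the edge of the plot, read 4.85, 5.47 and 6.02 with PXD101, against 11.76, 8.37 and 11.81 in untreated cells, where replicate 2 again lay apart.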

How the data were processed

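RNA was measured on Affymetrix expression arrays, 15 in 5 groups of 3 biological replicates, after RNeasy extraction, WT-Ovation Pico amplification and biotin labelling, per the labels' protocols. The authors deposited 1 table of log2 values for 54675 probe sets. R 2.10.1 and affy are named in the submitters' processing notes. How background was corrected and arrays were normalized is not stated there. That the deposited values are log2 follows from their range, 2.39 to 14.52. Arrays give no depth, and their number limits the precision.

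Gene symbols came from the platform annotation, updated through Entrez IDs to RefSeq (41043 of 41097 single-symbol probe sets matched, 1801 had several symbols and 11777 none), and 62 control probe sets were left out. The probe set with the highest mean over all arrays stood for its gene. This choice favours bright probe sets, and 10523 genes had more than 1.

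Contrasts were fitted with limma 3.58.1 (lmFit, eBayes, R 4.3.3) on group means of all 15 arrays, with Benjamini-Hochberg adjustment over 19775 genes and a threshold of 0.05. On simulated data with normal noise and each gene's pooled spread, limma recovered 90 of 100 genes changed by log2 1 in the combined arm against decitabine. It recovered 100 of 100 changed by log2 2, and called 4 unchanged genes. So many changed genes ease the adjusted threshold, so these counts do not give the recovery in the real comparison. Rank product used 9 array pairs and 100 permutations (Python 3.11.15, numpy 2.4.6).

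Named genes were the called genes and then those of smallest p up to 14 per direction, up to 4 members of each list by p, the drug targets, and the leading genes of the difference of differences. Counts were taken over 37 lists of 1093 genes, of which 121 were not analysed here. The members and lists were chosen with earlier results of these data known. Alternatives were a fit of only the arrays compared, a replicate block, filters on level, other probe set rules, array weights, other scaling, a variance trend, a 2-fold minimum, rank product and leaving out each array. Leave-outs for the 3 side contrasts, and leaving out untreated replicates 1 and 3 together, were added after seeing the data.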

Additional observations from a re-analysis of the deposited data

Results flagged for a closer look

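Tested as a difference of differences in limma over all 15 arrays, 3 genes were called between decitabine-treated and other CP70 cells. DPPA4 differed by 1.18 between the combined arm and decitabine and by -0.09 between PXD101 and untreated cells, a gap of 1.26 ± 0.15 (SE, limma adjusted p = 0.0111). It averaged 3.20 with PXD101 and 3.29 in untreated cells, under the lower quartile of all gene values, 4.34. Little of an effect of PXD101 on DPPA4 could be read at that level. For TPT1-AS1 the 2 differences were 0.56 and -0.48, a gap of 1.04 ± 0.13 (adjusted p = 0.0111). For TRIML2 they were 0.56 and -0.39, a gap of 0.95 ± 0.12 (adjusted p = 0.0113). All 3 combined arrays lay above all 3 decitabine arrays for each of these genes. Exposure to PXD101 was 24 h in the first pair of groups and 48 h in the second. With the mean of all probe sets the gap was 0.36 for DPPA4 and 0.46 for TPT1-AS1, both with an adjusted p of 0.194. None of the 3 was called without combined replicate 3 (adjusted p = 0.0511 to 0.0529) or decitabine replicate 2 (0.0579), and TRIML2 was not called with only the arrays compared (0.0539) or without combined replicate 1, PXD101 replicate 2 or untreated replicate 3 (0.0506 to 0.0586), with gaps of about the same size.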

How the results depend on the processing

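The 2 calls of the combined arm against decitabine became 0 with only the 6 arrays, 0 among genes above the median level, 1 with a 2-fold minimum, 5 with array weights and 18 by rank product, and 1 to 2 with 1 array left out. The list members called became 0, 0 and 1 under the first 3 of these, and 1 to 2 with 1 array left out. The 3 calls of the difference of differences became 0 above the median level, 1 with mean probe sets, 8 with every probe set, 5329 with array weights, 0 to 4059 with 1 array left out (0 without combined replicate 3 or decitabine replicate 2, 4059 without untreated replicate 2) and 0 without untreated replicates 1 and 3, which leaves 1 untreated array whose spread is taken from the other groups. The differences of DPPA4, TPT1-AS1 and TRIML2 were then 1.40, 1.00 and 0.94, so that 0 does not show that they went away. PXD101 against untreated (2119) gave 0 to 5736 with 1 array left out, 0 without untreated replicates 1 and 3, and 378 with a 2-fold minimum. Decitabine against untreated (1583) gave 849 to 4673, 741 and 344 in the same order. Same-numbered replicates did not deviate together (r = -0.33, 0.11 and -0.37), while differently numbered pairs had r of -0.18 to 0.40. The replicate block left 2 and 3 calls, so no pairing by number was seen. Pairing across numbers was not tested. Over 164 named genes, 2338 of 2369 alternative values kept direction and side of the threshold, 8 lost and 6 gained a call, and 17 uncalled values of 12 genes changed sign. TRIML2 passed with mean probe sets (adjusted p = 0.0485) and array weights (0.0357), TPT1-AS1 with array weights (0.0131) and median centring (0.0484), HBEGF with array weights (0.0234) and TRIM59 without decitabine replicate 1 (0.0162). DPPA4 was lost with mean probe sets (0.137). The causes were not tested. Genes under the lower quartile of all values, 4.34, limit what can be read of weak transcripts.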
